A study of Mus musculus with 12 samples.

Results

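The integrated stress response genes described here are Atf4, Ddit3, Ppp1r15a, Trib3, Asns, Slc7a11, Slc3a2, Chac1, Sesn2 and Ddit4, measured in mouse spinal cord after a cut. They were found as every probe set whose single gene symbol in the array annotation is one of these names, which gave 15 probe sets for 10 genes, of 20393 probe sets naming 12394 genes. A probe set is a group of short oligonucleotides on an Affymetrix array that together give 1 value for a transcript. The animals were wild-type female C57BL/6 mice aged 10 weeks. Injured mice had a laminectomy, which exposes the cord, and an 80% transection, and control mice had the laminectomy alone; they are called naive in the sample titles and sham in the source labels, and sham here. At 9 hours, 2.5 cm of cord around the operated site was homogenised, a small aliquot gave total RNA (5 µg labelled), and polysome-bound RNA (3 µg labelled) was separated from the rest by sucrose gradient. There were 4 groups of 3 biological replicates (12 arrays), so a total and a polysome sample may come from the same homogenate, although the labels do not say which do. No transgene or other allele was involved. The tissue is whole cord, so in every result fewer cells of a type and less RNA per cell cannot be told apart.

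In the integrated stress response, a stress-activated kinase phosphorylates the initiation factor eIF2, which lowers protein synthesis in general and favours translation of mRNAs with upstream reading frames. The best known of these encodes ATF4, a transcription factor that raises genes of amino acid supply, redox balance and, with CHOP (the product of Ddit3), cell death. The Ppp1r15a product directs a phosphatase to eIF2 and reverses the phosphorylation. Atf4, Ddit3 and Ppp1r15a transcripts all carry upstream reading frames, and the other 7 genes are known targets of ATF4 or of stress pathways around it. The frames themselves were not analysed here.

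ATF4 with a C/EBP partner is known to bind a composite element whose core was searched as TGATGNAA. It was searched on both strands of RefSeq promoters (build GRCm38.p6, 250 bases before to 50 bases after each annotated start, 300 bases in all), together with the variant TGACGNAA, the cyclic AMP response element TGACGTCA, and the endoplasmic reticulum stress element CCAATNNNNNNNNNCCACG. No match of 8 bases can count for more than 1 of the first 3. All 10 genes had a promoter in the table, and TGATGNAA was found in 4 of them (Asns, Slc7a11, Chac1 and Trib3), against 3.97% of 32851 promoters. TGACGNAA was found in Chac1 (1.59% of promoters) and TGACGTCA in Ppp1r15a (1.79%). The stress element was found in none of the 10 (0.119% of promoters). The match in Trib3 lies after the start and is not printed. The stretches that hold the other matches are given 5′ to 3′ on the gene's strand, because 2 of the genes rose in total RNA under every scaling tried, 1 rose only on some scalings, and 1 lay near background on polysomes. Capitals mark the matched letters. A match is a description of the sequence, not evidence of binding.
Ppp1r15a, chr7:45526269-45526292, minus strand: ccgcctctccggTGACGTCAgcac
Asns, chr6:7693213-7693244, minus strand: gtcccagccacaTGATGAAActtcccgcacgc
Slc7a11, chr3:50443641-50443691, minus strand: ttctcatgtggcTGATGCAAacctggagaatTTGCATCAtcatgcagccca
Chac1, chr2:119350992-119351068, plus strand: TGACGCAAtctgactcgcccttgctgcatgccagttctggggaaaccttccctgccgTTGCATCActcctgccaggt
The Slc7a11 window held the core once on each strand, 66 and 47 bases before the start, and the Asns match began 23 bases before it. In Chac1 the variant lay 250 bases and the core 193 bases before the start.

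The values are on a log2 scale from 5.26 to 14.65, and the arrays were not brought to 1 distribution: in total RNA the mean array median was 7.82 (sham) and 7.85 (injured), and on polysomes 7.33 and 7.25. Each result was therefore also computed after quantile normalization and after centring each array on its median, and a direction is called dependent on scaling where it differs between them. The 27 absent-control probe sets, which match no mouse transcript, had a median of 5.70 to 6.08 in the 4 groups and a highest value of 6.44 to 7.04. Injury also moved measures of RNA and array quality. The 3′ minus 5′ difference of the Gapdh control, which is larger in degraded RNA, was 0.23 ± 0.05 with sham and 1.40 ± 0.22 with injury for total RNA, and 0.87 ± 0.03 and 2.83 ± 0.27 for polysomes (SD, n = 3; exact two-sided permutation p = 0.1 each, the smallest possible for 3 against 3). The bioB hybridisation spikes were lower on injured arrays by 0.82 and 0.71 (exact permutation p = 0.1 each). Of 7 measured monocyte and neutrophil markers, 5 were higher and 1 lower in injured total RNA, and 2 were higher on polysomes. Summed on a linear scale, their level ranged over 1900 to 2600 (sham) and 3790 to 6370 (injured) in total RNA, and over 1140 to 1380 and 1510 to 3000 on polysomes, while Ccr2, a defining monocyte marker, was above every absent control on 0 arrays. Of 6 astrocyte markers, 4 were higher in injured total RNA, and 2 were higher and 3 lower on polysomes. Their summed level was 13200 to 13800 (sham) and 16900 to 17300 (injured) in total RNA, and 8250 to 9290 and 7620 to 7730 on polysomes. Of 5 microglia markers, 3 were lower in injured total RNA and 4 on polysomes, with summed levels of 2900 to 3080 (sham) and 2470 to 2690 (injured), and of 1800 to 1990 and 1330 to 1530. Of 5 neuron markers, 2 were higher (Snap25 and Nefl, 0.18 each) and 2 lower (Rbfox3, -0.83, and Syt1, -0.94) in injured total RNA. On polysomes 1 was higher and 1 lower. Of 5 endothelial markers, 2 were higher and 1 lower in total RNA, and 2 were lower on polysomes. For 4 meningeal and stromal markers these counts were 1, 1 and 2, and 1 of 4 oligodendrocyte markers was lower on polysomes. Markers of neurons, astrocytes and oligodendrocytes were above the absent controls on all 12 arrays. The part of these measures in the results below was not tested.

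At 9 hours after injury, Slc3a2, Atf4, Ddit3, Ppp1r15a and Chac1 were higher and Sesn2 lower in total RNA. Calls among the 15 probe sets numbered 12 in total RNA and 4 on polysomes as deposited, 8 and 7 after quantile normalization, and 12 and 7 after centring. Over all 16566 probe sets, calls numbered 9901 and 6423 as deposited, 7207 and 6503 after quantile normalization, and 9985 and 6738 after centring. A difference between these counts was not tested. Of the 15 probe sets, all of which passed the filter on low values, 8 were higher and 4 lower in injured cord and 3 did not pass the test (limma, Benjamini-Hochberg adjusted p under 0.05 over 16566 probe sets). Over all probe sets 37.3% were called higher and 22.4% lower. The median change of the 15 was 0.29 on the log2 scale, and that of all probe sets 0.08. On polysomes 3 of 15 were higher and 1 lower, against 11.8% and 27% of all probe sets, and the medians were 0.05 and -0.05. Among calls over all probe sets, the share that was higher was 62.5% in total RNA as deposited, 50.4% after quantile normalization and 60.1% after centring, and 30.4%, 49.4% and 53.7% on polysomes. Members called in 1 direction under all 3 scalings were Slc3a2, Chac1, Ddit3, Ppp1r15a and Atf4 (1448135_at) as higher and both Sesn2 probe sets as lower in total RNA. On polysomes they were Slc3a2, Ppp1r15a and Sesn2 (1425139_at) as higher and Asns (1451095_at) as lower. These are 7 and 4 of the 15, against 32.5% and 29.2% of all probe sets.

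**Figure D1:**
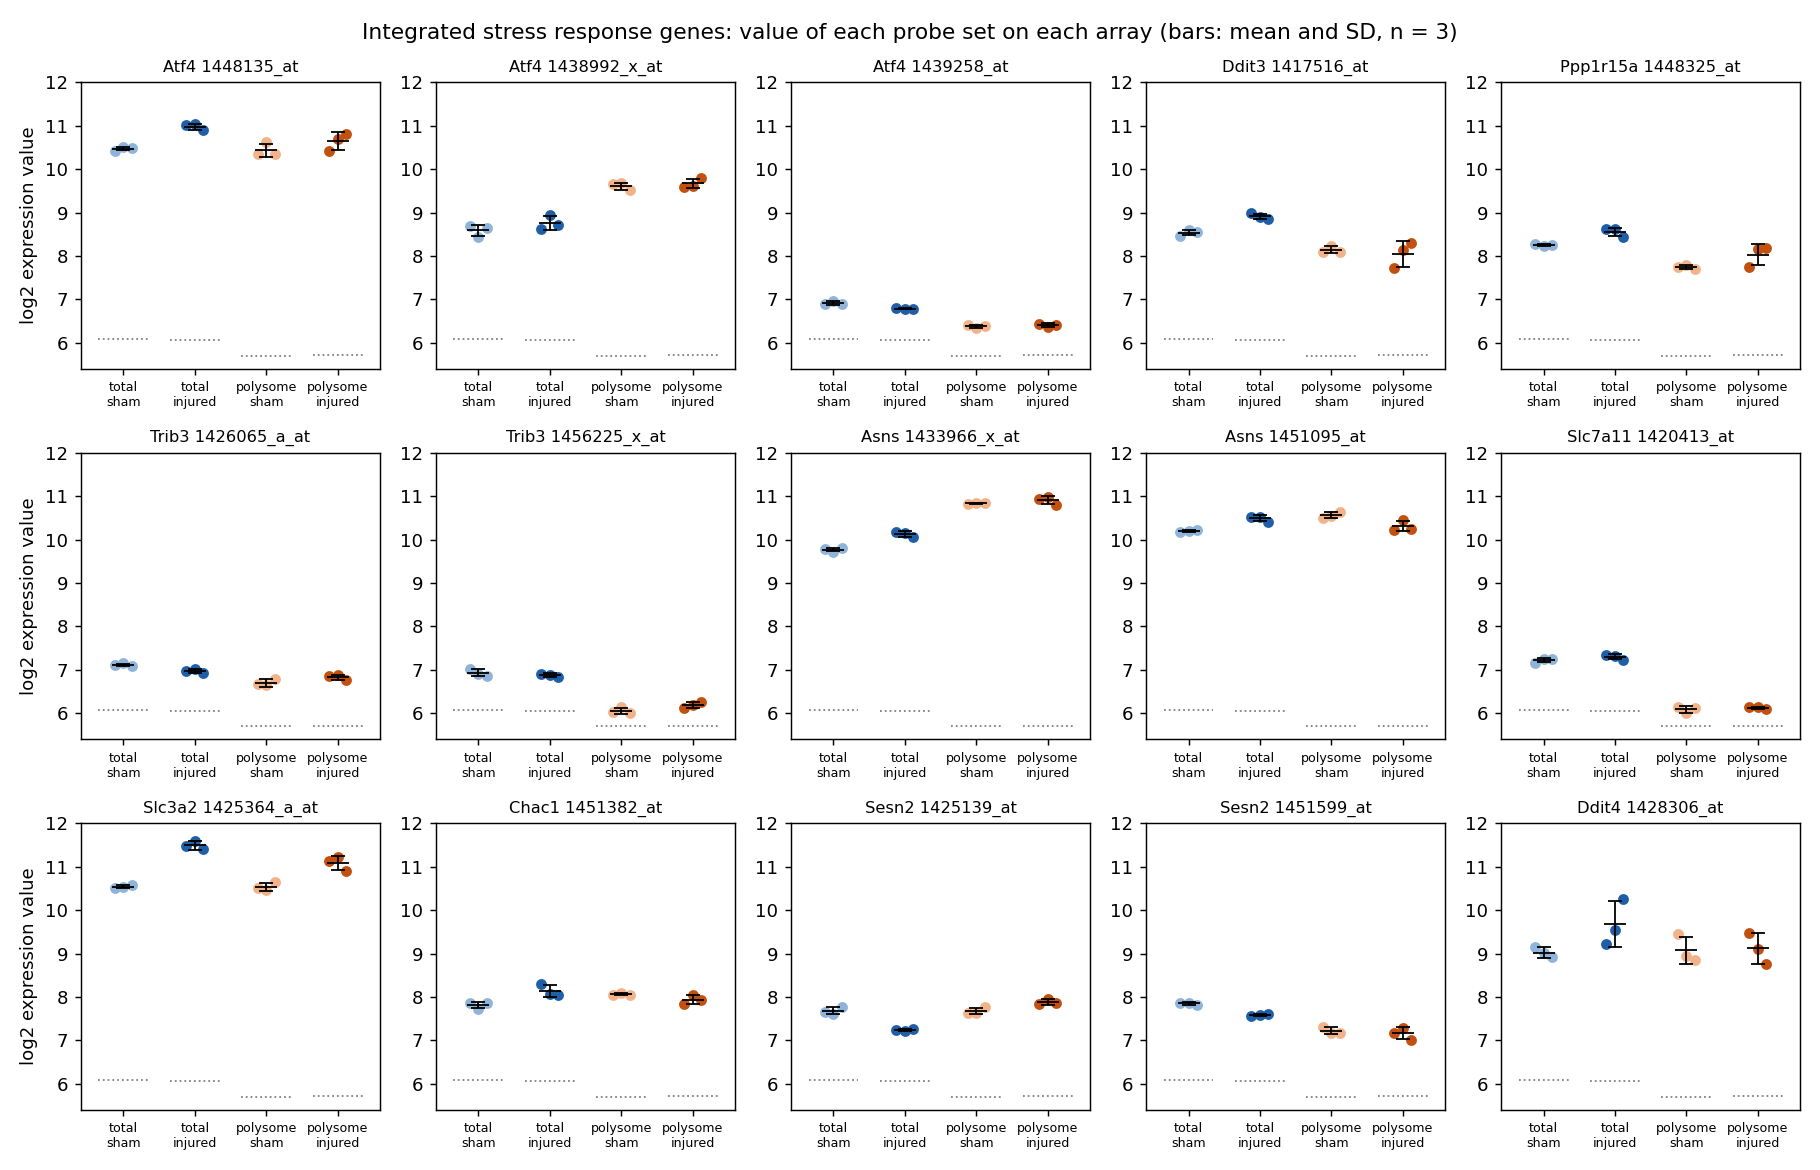
Each panel plots the log2 expression value of 1 probe set on each of the 12 arrays, with the group mean and SD (n = 3) in black and the median of the absent controls as a dotted line. Slc3a2 stands higher in both injured groups, Sesn2 1425139_at moves down in total RNA and up on polysomes, and Slc7a11 and Trib3 1456225_x_at lie near the dotted line on polysomes.

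Atf4 mRNA, which encodes the central factor of the pathway, rose in total RNA by its brightest probe set. Probe set 1448135_at read 10.42, 10.50 and 10.48 on the sham and 11.01, 11.03 and 10.91 on the injured arrays of total RNA, and 10.35, 10.62 and 10.35 against 10.41, 10.70 and 10.81 on polysomes. All injured total arrays lay above all sham ones, whereas the polysome groups overlapped. The change was 0.51 ± 0.10 in total RNA (limma SE; 1.43-fold, adjusted p = 0.00054) and 0.20 ± 0.10 on polysomes (adjusted p = 0.12). After quantile normalization both were called, at 0.24 and 0.26, and without the first injured polysome array the polysome change was 0.31 (adjusted p = 0.0074), without the second sham polysome array 0.29, both past the threshold. The other Atf4 probe sets did not repeat the rise. Probe set 1438992_x_at, of a type that may also bind related transcripts, ranged from 8.44 to 8.68 (sham) and 8.61 to 8.95 (injured) in total RNA, and from 9.52 to 9.67 and 9.59 to 9.79 on polysomes (changes of 0.17, adjusted p = 0.13, and 0.05, adjusted p = 0.68). Probe set 1439258_at was above every absent control on 1 of 12 arrays, so its fall of 0.14 in total RNA (adjusted p = 0.015) lies at background. That call was lost without the second sham total array (-0.11), and the change was 0.00 after quantile normalization.

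Ddit3, which encodes the pro-apoptotic factor CHOP, rose in total RNA and did not pass the test on polysomes. Its probe set read 8.47, 8.59 and 8.55 on the sham and 8.98, 8.89 and 8.86 on the injured arrays of total RNA, and 8.10, 8.23 and 8.10 against 7.72, 8.14 and 8.29 on polysomes. The total RNA groups did not overlap, and the first injured polysome array lay below every other array. The change was 0.37 ± 0.11 in total RNA (1.29-fold, adjusted p = 0.0096) and -0.09 ± 0.11 on polysomes (95% interval -0.33 to 0.14, adjusted p = 0.54), or 0.07 without that first array (adjusted p = 0.46). The 2 changes differed by -0.46 (interaction, adjusted p = 0.022). The difference was lost after quantile normalization (-0.23, adjusted p = 0.17) and when the first sham total array, the first injured total array or the second sham polysome array was left out (-0.42 to -0.43).

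Ppp1r15a, which encodes GADD34, the stress-induced partner of the eIF2 phosphatase, was higher after injury in total RNA and, less firmly, on polysomes. It read 8.27, 8.22 and 8.25 on the sham and 8.61, 8.61 and 8.44 on the injured arrays of total RNA, and 7.75, 7.80 and 7.71 against 7.74, 8.16 and 8.18 on polysomes. The total RNA groups were separate, and on polysomes the first injured array sat among the sham arrays while the others lay above them. The changes were 0.30 ± 0.10 (1.24-fold, adjusted p = 0.014) and 0.27 ± 0.10 (1.21-fold, adjusted p = 0.035), and the interaction was -0.03 (95% interval -0.32 to 0.26, adjusted p = 0.87). The total RNA call was lost without the first or the second injured array (0.28 each). The polysome call was lost without any 1 of the sham polysome arrays (0.27, 0.30 and 0.25) or injured polysome array 2 or 3 (0.21 and 0.20), and was 0.42 without the first injured array (adjusted p = 0.00022). With only the polysome arrays in the fit it was also lost (adjusted p = 0.1). The first injured polysome array had the lowest value of its group for Atf4 1448135_at, Ddit3 and Ppp1r15a. This was not particular to these genes. The same held for another Atf4 probe set, for Chac1 and for 1 probe set each of Trib3, Asns and Sesn2. It did not hold for Slc7a11, Slc3a2, Ddit4 or the remaining probe sets of Atf4, Trib3, Asns and Sesn2.

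Trib3, a pseudokinase induced by ATF4 and CHOP that feeds back on ATF4, changed little and lay low on the arrays. Probe set 1426065_a_at read 7.12, 7.15 and 7.08 on the sham and 6.97, 7.02 and 6.93 on the injured arrays of total RNA, and 6.67, 6.64 and 6.80 against 6.85, 6.87 and 6.76 on polysomes. Values went down in total RNA and, with overlap, up on polysomes. The change of -0.14 ± 0.05 in total RNA (adjusted p = 0.036) was -0.02 after quantile normalization (adjusted p = 0.79), and was lost without the first or second sham array or injured total array 1 or 3 (-0.12 to -0.14). On polysomes it was 0.12 ± 0.05 (adjusted p = 0.085), and 0.18 and called after quantile normalization. The difference between the fractions, 0.26 ± 0.08 (adjusted p = 0.011), was called under all 3 scalings. In total RNA the means lay just above the highest absent control, at 7.11 against 7.04 with sham and 6.98 against 6.85 with injury. That control level was itself lower with injury (-0.19), and its part in the difference was not tested. Probe set 1456225_x_at was above every absent control only on the 3 injured total arrays. Its changes were -0.05 ± 0.06 (adjusted p = 0.45) and 0.13 ± 0.06 (adjusted p = 0.071). The latter passed the threshold under both other scalings (quantile 0.16, adjusted p = 0.048, and centred 0.22, adjusted p = 0.011), and the interaction only after centring (0.29, adjusted p = 0.014).

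Asns, which makes asparagine from aspartate and is a classical ATF4 target, has 2 probe sets that agreed in total RNA and parted on polysomes. The first, 1433966_x_at, is of the type that may also bind related transcripts. Probe set 1433966_x_at read 9.78, 9.72 and 9.81 on the sham and 10.18, 10.15 and 10.07 on the injured arrays of total RNA, and 10.82, 10.85 and 10.85 against 10.93, 10.99 and 10.80 on polysomes. Probe set 1451095_at read 10.18, 10.20 and 10.22 on the sham and 10.52, 10.53 and 10.40 on the injured arrays of total RNA, and 10.49, 10.55 and 10.63 against 10.23, 10.45 and 10.25 on polysomes. In total RNA both were separate and higher after injury, by 0.37 ± 0.06 (adjusted p = 0.00027) and 0.29 ± 0.07 (adjusted p = 0.0033). Both calls depended on scaling: after quantile normalization the changes were 0.11 (adjusted p = 0.15) and 0.00 (adjusted p = 0.99). On polysomes the first changed by 0.07 ± 0.06 (adjusted p = 0.44), and the second fell by 0.25 on the log2 scale (SE 0.07, adjusted p = 0.013), a call lost without sham polysome array 3 (-0.21) and with only the polysome arrays in the fit (adjusted p = 0.061). The interaction was -0.30 (adjusted p = 0.013) and -0.54 (adjusted p = 0.00078) as deposited, and 0.02 and -0.16 after quantile normalization, where neither was called.

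Slc3a2, the heavy chain (CD98) that carries amino acid exchangers to the cell surface, had the largest change of the 15 probe sets in both fractions. It read 10.51, 10.54 and 10.59 on the sham and 11.48, 11.60 and 11.40 on the injured arrays of total RNA, and 10.50, 10.46 and 10.64 against 11.13, 11.22 and 10.91 on polysomes. Injured arrays lay above sham arrays without overlap in each fraction. The change was 0.95 ± 0.08 in total RNA (1.93-fold, adjusted p = 1.1e-06) and 0.56 ± 0.08 on polysomes (1.47-fold, adjusted p = 0.00014). After quantile normalization the values were 0.72 and 0.59, both called. The smaller rise on polysomes passed the interaction test as deposited (-0.39 ± 0.12, adjusted p = 0.012) and not after quantile normalization (-0.13, adjusted p = 0.37). Of its light chains, Slc7a5, the large neutral amino acid transporter LAT1, also rose, by 0.53 ± 0.08 in total RNA (adjusted p = 7.9e-05) and 0.44 ± 0.08 on polysomes (adjusted p = 0.00049).

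Slc7a11, the light chain that with Slc3a2 forms the cystine and glutamate exchanger, did not pass the test. It read 7.16, 7.26 and 7.24 on the sham and 7.34, 7.32 and 7.23 on the injured arrays of total RNA, and 6.14, 6.00 and 6.13 against 6.14, 6.14 and 6.09 on polysomes. It was above every absent control on all 6 total arrays and on 0 of 6 polysome arrays. The total RNA change was 0.08 ± 0.05 (95% interval -0.03 to 0.19, adjusted p = 0.2), and 0.16 and called after quantile normalization (adjusted p = 0.025). Its polysome change of 0.03 (adjusted p = 0.7) is one between background levels.

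Chac1, which degrades glutathione and is a target of ATF4 and CHOP, rose in total RNA and did not pass the test on polysomes. It read 7.86, 7.73 and 7.85 on the sham and 8.29, 8.07 and 8.05 on the injured arrays of total RNA, and 8.05, 8.09 and 8.05 against 7.83, 8.04 and 7.93 on polysomes. Groups did not overlap in either fraction, higher after injury in total RNA and lower on polysomes. The changes were 0.32 ± 0.07 (1.25-fold, adjusted p = 0.0018) and -0.13 ± 0.07 (adjusted p = 0.17). Their difference of -0.45 ± 0.10 (adjusted p = 0.0026) was called under every scaling, and was -0.33 after quantile normalization. The polysome change itself was -0.02 after quantile normalization.

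Sesn2, which encodes a leucine sensor that restrains mTORC1 and is induced by ATF4 in many cells, went the other way in total RNA. Probe set 1425139_at read 7.66, 7.60 and 7.76 on the sham and 7.24, 7.22 and 7.25 on the injured arrays of total RNA, and 7.64, 7.62 and 7.76 against 7.83, 7.96 and 7.85 on polysomes. The groups were separate in both fractions, with injured arrays below sham in total RNA and above sham on polysomes. It fell by 0.44 on the log2 scale in total RNA (SE 0.06, adjusted p = 3.8e-05) and rose by 0.21 ± 0.06 on polysomes (adjusted p = 0.011), and the 2 changes differed by 0.65 ± 0.08 (adjusted p = 6.9e-05). After quantile normalization these were -0.40, 0.29 and 0.69, all called. The mean rank of the probe set among all on its array went from percentile 46.6 to 37.6 in total RNA and from 56.0 to 61.5 on polysomes. The polysome call was lost without the second sham polysome array (0.18) and, narrowly, with only the polysome arrays in the fit (adjusted p = 0.05, above the threshold before rounding).

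Probe set 1451599_at of Sesn2 read 7.87, 7.87 and 7.82 on the sham and 7.56, 7.59 and 7.60 on the injured arrays of total RNA, and 7.31, 7.17 and 7.18 against 7.18, 7.28 and 7.01 on polysomes. It shared the decrease in total RNA without overlap and showed overlapping groups on polysomes. The changes were -0.27 ± 0.07 (adjusted p = 0.003) and -0.06 ± 0.07 (adjusted p = 0.48). Its interaction of 0.21 missed the threshold as deposited (adjusted p = 0.074) and passed it after quantile normalization (0.32) and centring (0.31). The related sestrins did not share the decrease: Sesn1 changed by 0.34 in total RNA (adjusted p = 0.00014) and 0.47 on polysomes (adjusted p = 2.1e-05; 0.38 and 0.05 at its other probe sets, the latter not called), and Sesn3 by 0.38 (adjusted p = 0.00022) and 0.30 (adjusted p = 0.0023). In total RNA neither sestrin was called after quantile normalization (0.12 and 0.11), and on polysomes both were.

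Ddit4 (REDD1), a stress- and hypoxia-induced brake on mTORC1, had the largest SD between replicates of these probe sets, 0.52 in injured total RNA. It read 9.15, 9.01 and 8.91 on the sham and 9.23, 9.55 and 10.25 on the injured arrays of total RNA, and 9.44, 8.95 and 8.86 against 9.48, 9.11 and 8.77 on polysomes. The total RNA groups were separate by a small margin, with 1 injured array far above the others, and the polysome groups overlapped fully. The change was 0.66 ± 0.22 in total RNA (1.58-fold, adjusted p = 0.022) and 0.04 ± 0.22 on polysomes (95% interval -0.44 to 0.52, adjusted p = 0.92). The total RNA value was 0.37 without injured total array 3 (not called) and was also not called without sham total array 2 or 3 (0.65 and 0.60) or after quantile normalization (0.49, adjusted p = 0.1). The interaction was -0.62 (95% interval -1.30 to 0.06, adjusted p = 0.12).

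**Figure D2:**
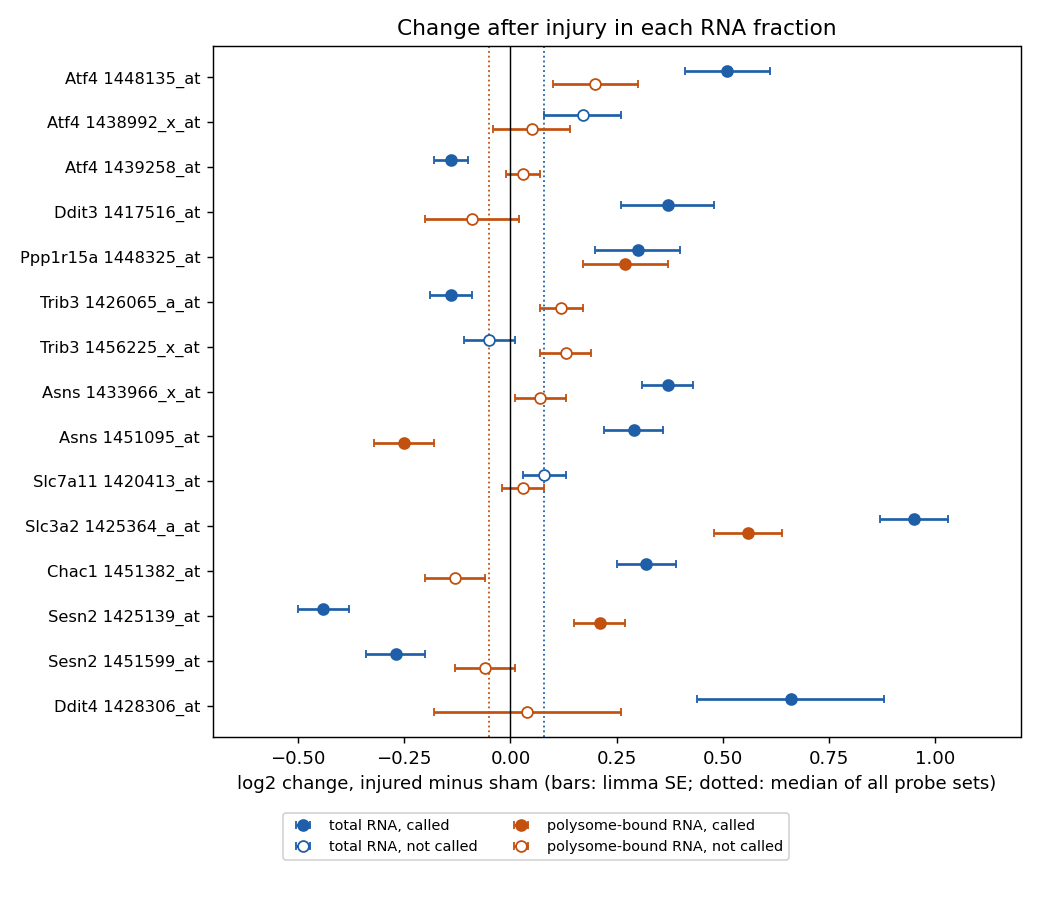
Points give the log2 change from sham to injured cord for each probe set, with limma standard errors, in total RNA (blue) and on polysomes (orange); filled points were called at an adjusted p under 0.05, and dotted lines mark the median of all probe sets. Slc3a2 has the highest points in both fractions, and Sesn2 1425139_at is called in opposite directions, at -0.44 and 0.21.

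The injury change differed between fractions for 8 of the 15 probe sets by the interaction test, 3 with the larger value on polysomes and 5 with the larger value in total RNA. Over all probe sets these shares were 13.6% and 37%, and the median interaction was -0.14, against -0.11 for the members. The share of positive interactions among all calls moved from 26.8% as deposited to 48.5% after quantile normalization and 44.7% after centring. Sesn2 1425139_at (0.65), Trib3 1426065_a_at (0.26) and Chac1 (-0.45) kept their direction and their call under all 3 scalings, 3 of 15 against 24.9% of all probe sets. The Trib3 values in total RNA lay just above the highest absent control. The 2 Sesn2 probe sets differ on polysomes, as do those of Asns, and the 3′ minus 5′ difference of the Gapdh control was largest on injured polysome arrays; its part in these differences between probe sets was not tested.

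The level on polysomes relative to total RNA was compared within sham and within injured cord, which compares each transcript's level among polysome-bound RNA with its level among total RNA. In sham cord 4 of 15 probe sets were higher and 7 lower on polysomes, against 18.6% and 62.6% of all, and in injured cord 3 were higher and 12 lower, against 12.9% and 73.7%. After quantile normalization the members' counts were 6 higher and 3 lower in sham and 7 higher and 4 lower in injured cord, and after centring 8 and 2, and 10 and 2. Over all 16566 probe sets, 11307 were called in sham and 12224 in injured cord after quantile normalization, 5966 and 6468 of them higher. After centring 12114 and 12658 were called, 8076 and 8320 of them higher. Scaling shifts this comparison as a whole: the median over all probe sets was -0.35 in sham and -0.44 in injured cord as deposited, 0.02 and 0.03 after quantile normalization, and 0.14 and 0.16 after centring. The share of calls that was higher moved from 22.9% to 52.8% and 66.7% in sham, and from 14.9% to 52.9% and 65.7% in injured cord. Asns 1433966_x_at was higher on polysomes by 1.07 ± 0.06 in sham (2.10-fold, adjusted p = 1.4e-09) and 0.77 ± 0.06 in injured cord (1.71-fold, adjusted p = 2.7e-08). Atf4 1438992_x_at was higher by 1.02 ± 0.09 (adjusted p = 1.2e-07) and 0.91 ± 0.09 (adjusted p = 3.3e-07). Both held under all 3 scalings, and both probe sets are of the type that may also bind related transcripts. The other Asns probe set, 1451095_at, was higher on polysomes by 0.36 in sham (adjusted p = 0.00026) and lower in injured cord, at -0.18 (adjusted p = 0.03), where it gave 0.08 after quantile normalization and 0.42 after centring. The brightest Atf4 probe set, 1448135_at, gave -0.03 and -0.35 as deposited and 0.47 and 0.26 after centring, so the 2 probe sets of the gene do not place it alike.

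For the other transcripts with upstream reading frames, the level on polysomes depended on the scaling in sham cord. Ddit3 was lower there by 0.40 as deposited, and 0.10 higher, not called, after centring. In injured cord Ddit3 was lower under all 3 scalings (-0.86, -0.35 and -0.26, each called). Ppp1r15a was called lower in both conditions as deposited (-0.50 and -0.53) and was not called after quantile normalization (-0.14 and -0.01) or centring (0.00 and 0.07). Slc7a11 was lower under every scaling (-1.13 and -1.18 as deposited), with polysome values at background. Sesn2 1425139_at gave 0.00 in sham and 0.65 in injured cord as deposited, and 0.47 and 1.16 after quantile normalization, so it was called higher on polysomes in injured cord under each scaling. In all, 6 probe sets in sham and 5 in injured cord held 1 called direction under the 3 scalings, against 37.2% and 39% of all probe sets.

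**Figure D3:**
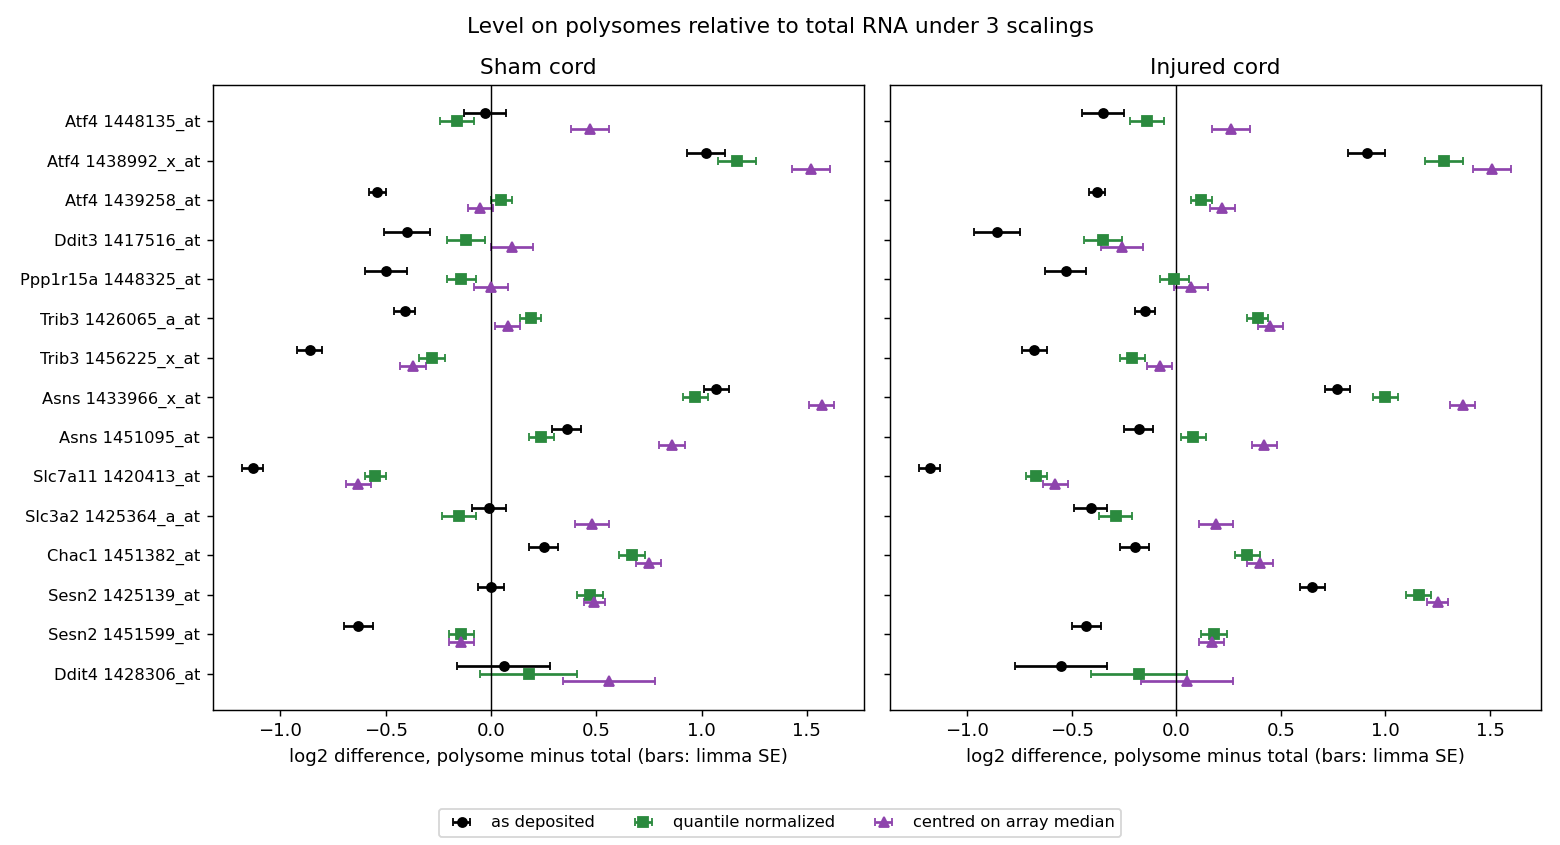
Points give the log2 difference, polysome minus total RNA, of each probe set in sham (left) and injured cord (right), with limma standard errors, for the values as deposited, after quantile normalization and after centring on the array median. Asns 1433966_x_at and Atf4 1438992_x_at lie right of 0 and Slc7a11 left of 0 under each scaling, while Trib3 1426065_a_at, Slc3a2 and others change side.

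The remaining genes of the pathway were read at the brightest probe set of each gene; over all genes, 41.8% were higher and 17.9% lower after injury in total RNA, and 13.5% and 24.9% on polysomes. Of the 4 eIF2 kinases, 3 were higher and 1 lower in total RNA, and 0 were higher and 1 lower on polysomes (limma, adjusted p under 0.05). Eif2ak3 (PERK, activated by misfolded protein) changed by 0.24 in total RNA (adjusted p = 0.024) and -0.05 on polysomes (adjusted p = 0.7), and Eif2ak4 (GCN2, activated by uncharged tRNA) by 0.29 (adjusted p = 0.00016) and 0.01 (adjusted p = 0.88). Eif2ak1 (HRI, regulated by haem) rose by 0.22 in total RNA (adjusted p = 0.046) and fell by 0.38 on the log2 scale on polysomes (adjusted p = 0.0038), and Eif2ak2 (PKR, activated by double-stranded RNA) fell by 0.31 in total RNA (adjusted p = 0.00026). Dimmer probe sets went against these readings: another tested one for Eif2ak1 was lower in total RNA (-0.41, adjusted p = 0.0099) and on polysomes (-0.44, adjusted p = 0.01), and another for Eif2ak3 likewise (-0.20, adjusted p = 0.025, and -0.22, adjusted p = 0.027). The second for Eif2ak2 gave 0.00 in total RNA (adjusted p = 0.97). The direction in total RNA is therefore unsettled for Eif2ak1 and Eif2ak3. After quantile normalization Eif2ak4 was the 1 kinase still higher, and without the first or second sham, or the first or second injured, total array only 1 kinase was called higher. On polysomes 0 kinases were called higher under each of the 3 scalings, and 2 were lower without the second sham polysome array.

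Of 10 measured subunits of eIF2, eIF2B and the eIF2 phosphatase, 9 were higher in total RNA, or 5 after quantile normalization with 1 lower. On polysomes 3 were higher and 4 lower, with 2 lower after quantile normalization or without the second sham polysome array. Some dimmer probe sets disagreed. In total RNA one of Eif2s3x (-0.61, adjusted p = 1.6e-05) and one of Ppp1cb (-0.35, adjusted p = 6e-04) were lower, while another of each rose (0.52 and 0.25). On polysomes Eif2s2, counted as lower, had dimmer ones that were higher (0.36, adjusted p = 0.00029, and 0.21, adjusted p = 0.016) and one lower (-0.73, adjusted p = 0.00062). Ppp1r15b, the constitutive counterpart of Ppp1r15a whose mRNA also has an upstream reading frame, rose by 0.80 in total RNA (adjusted p = 4.3e-06) and 0.51 on polysomes (adjusted p = 0.00026), called under all 3 scalings. Among 8 transcription factors of the response, 8 were higher in total RNA (5 after quantile normalization, and 5 without the first sham or the first injured total array), and 4 were higher on polysomes. Cebpb, a partner of ATF4, had the highest change of the list, 1.57 ± 0.14 in total RNA (adjusted p = 1.2e-06) and 1.35 ± 0.14 on polysomes (adjusted p = 8.7e-06). Atf3, a stress-induced repressor that is also a marker of nerve injury, rose by 0.61 (adjusted p = 6.1e-05) and 0.49 (adjusted p = 0.00049). Nupr1, a stress-induced chromatin protein, rose by 1.15 in total RNA (adjusted p = 2.8e-05) and changed by 0.13 on polysomes (adjusted p = 0.5), and these differed (interaction -1.01, adjusted p = 0.0015). Atf5, another factor whose mRNA has upstream reading frames, gave 0.23 in total RNA (adjusted p = 0.034) and 0.17 on polysomes (adjusted p = 0.13). These calls depended on scaling. After quantile normalization the changes were 0.10 (adjusted p = 0.29) and 0.25 (adjusted p = 0.013), and after centring 0.21 (adjusted p = 0.033) and 0.26 (adjusted p = 0.016).

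Of 12 aminoacyl-tRNA synthetase and tRNA export genes, 8 were higher and 0 lower in total RNA, and 9 were higher and 0 lower on polysomes, where 13.5% of all genes were higher. The polysome count was 9 under each of the 3 scalings and without any single array, whereas the total RNA count was 4, with 2 lower, after quantile normalization. The polysome count rests on the brightest probe sets, and dimmer ones did not always repeat it. A dimmer Nars probe set was lower on polysomes (-0.20, adjusted p = 0.041), and that of Iars was not called there (0.15, adjusted p = 0.074). Those of Eprs were higher (0.31 and 0.30). Aars, the alanyl-tRNA synthetase, rose by 0.43 in total RNA (adjusted p = 9e-05) and 0.31 on polysomes (adjusted p = 0.0019), while its second probe set gave 0.46 (adjusted p = 3.3e-05) and 0.08 (adjusted p = 0.33). Wars, the tryptophanyl enzyme, changed by 0.11 in total RNA (adjusted p = 0.1; -0.15 after quantile normalization, adjusted p = 0.041) and rose by 0.29 on polysomes (adjusted p = 0.0013). Other probe sets of Wars disagreed: 1 was lower in both fractions (-0.72, adjusted p = 4.6e-07, and -0.53, adjusted p = 1e-05) and 1 was lower in total RNA (-0.30, adjusted p = 0.0061). No direction is therefore given for Wars, although it is among the 9 counted on polysomes. Of 10 enzymes of amino acid synthesis and one-carbon metabolism, 8 were higher in total RNA (4 after quantile normalization, with 1 lower, and 5 without sham total array 2 or injured total array 3). On polysomes 3 were higher and 2 lower, or 5 and 1 after centring; 1 was lower when any of 7 single arrays was left out. Mthfd2, a mitochondrial folate enzyme, rose by 0.32 (adjusted p = 0.00049) and 0.19 (adjusted p = 0.022), and Phgdh, which opens serine synthesis, gave -0.06 (adjusted p = 0.47) and -0.01 (adjusted p = 0.92). The second Mthfd2 probe set was not called in either fraction (0.19 and 0.03). Of the dimmer Phgdh probe sets, 1 was lower in both fractions (-0.24, adjusted p = 0.0082, and -0.25, adjusted p = 0.01) and 1 was lower in total RNA (-0.25, adjusted p = 0.043). Of 6 tested amino acid transporters, 4 were higher in total RNA (3, with 1 lower, after quantile normalization), and 3 were higher and 1 lower on polysomes. Slc1a4, counted as higher in total RNA, had 1 dimmer probe set higher there (0.44, adjusted p = 7e-04) and 1 lower (-0.15, adjusted p = 0.048). Both were lower on polysomes (-0.41, adjusted p = 0.0019, and -0.32, adjusted p = 0.0012). A dimmer Slc6a9 probe set was lower in total RNA (-0.50, adjusted p = 6.1e-05).

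Of 14 genes of the ATF6 and IRE1 arms of the unfolded protein response, which run beside the eIF2 arm, 10 were higher and 1 lower in total RNA, with 7 higher and 2 lower after quantile normalization. On polysomes 0 were higher and 3 lower as deposited, whereas 3 were higher and 1 lower after either other scaling. Leaving out single arrays moved the polysome counts between 0 and 1 higher and between 1 and 4 lower. Xbp1, the factor spliced by IRE1, rose by 0.87 in total RNA (adjusted p = 1.1e-06) and changed by 0.19 on polysomes (adjusted p = 0.063), where a dimmer probe set was lower (-0.29, adjusted p = 0.036). The brightest Xbp1 probe set was called higher on polysomes after quantile normalization (0.25, adjusted p = 0.0035) and centring (0.27, adjusted p = 0.0049). Hspa5, the chaperone BiP, rose by 0.33 in total RNA (adjusted p = 0.0053) and gave 0.06 after quantile normalization (adjusted p = 0.6). Of 13 other targets, 10 were higher and 1 lower in total RNA, the 10 becoming 4 after quantile normalization, and 5 were higher and 4 lower on polysomes, with 2 lower after quantile normalization and 3 higher without sham polysome array 3. The 1 lower gene in total RNA, the lipoprotein receptor Vldlr (-0.17, adjusted p = 0.044), was not called at that probe set without any 1 of 9 arrays. After quantile normalization it was lower by more (-0.44, adjusted p = 0.00033), and on polysomes it was lower too (-0.29, adjusted p = 0.0043). A dimmer Vldlr probe set was lower in both fractions (-0.32, adjusted p = 0.001, and -0.79, adjusted p = 2e-06). Of 5 other mRNAs with regulatory upstream reading frames, 4 were higher in total RNA, or 3 with 1 lower after quantile normalization, and 3 were higher on polysomes. Ifrd1, a transcriptional co-regulator in that list, rose by 1.19 (adjusted p = 2.1e-06) and 0.59 (adjusted p = 0.00086), while Slc35a4 rose by 0.30 in total RNA (adjusted p = 0.0063) and gave -0.14 on polysomes (adjusted p = 0.19). Its second probe set gave -0.05 in total RNA (adjusted p = 0.44) and was lower on polysomes (-0.20, adjusted p = 0.0096).

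**Figure D4:**
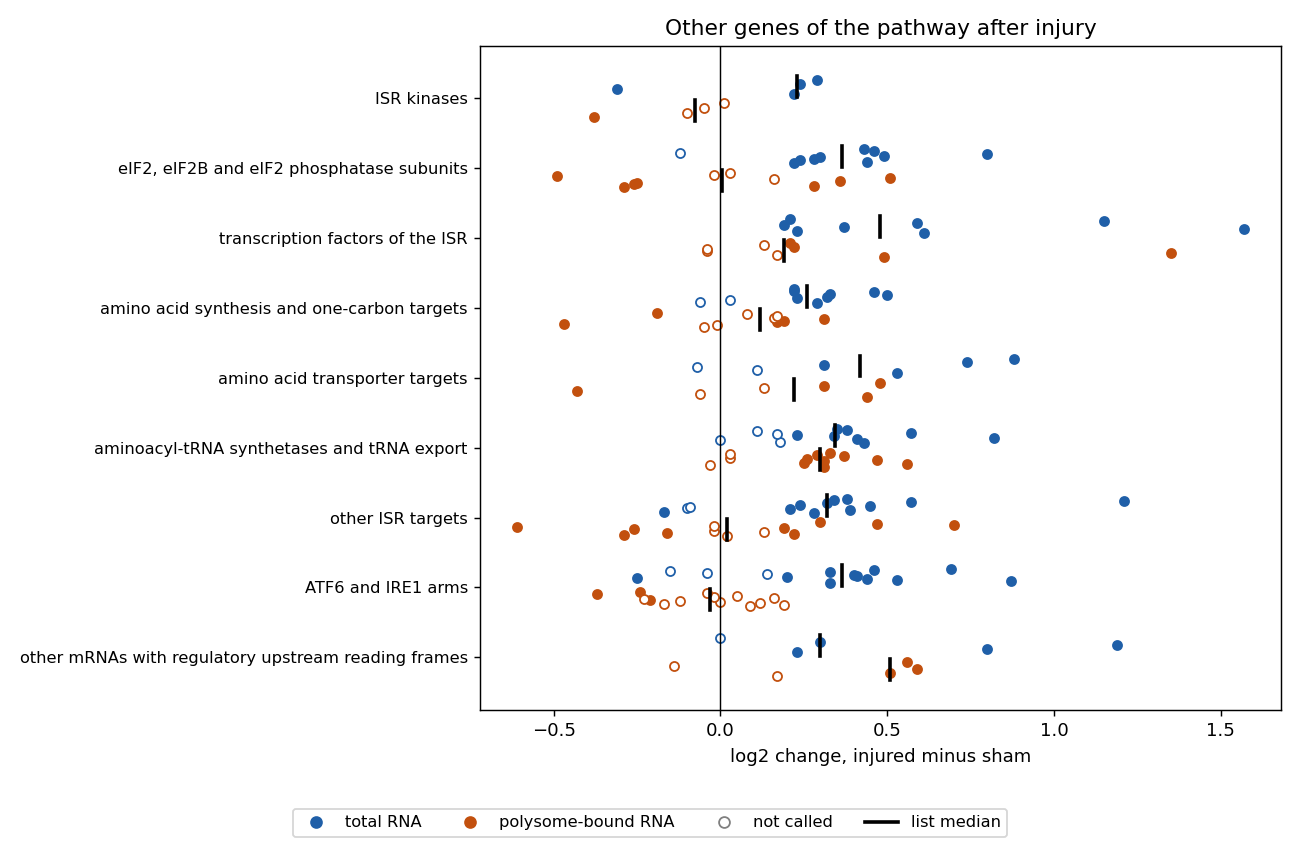
Each point is the log2 change from sham to injured cord of 1 gene of a pathway list, at its brightest probe set, in total RNA (blue) or on polysomes (orange), filled where called and with the list median as a black bar. The blue points of most lists lie right of 0, and of the 12 synthetase and tRNA export genes 9 orange points are filled, all right of 0.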

How the data were processed

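Affymetrix arrays measured total and polysome-bound RNA in 12 samples. The authors deposited 1 log2 value per probe set and array; the scale was read from the values, since background correction, normalization and software are not given in the sources used here. No depth applies to arrays, and their number limits the precision.

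Of 22690 probe sets, 20393 named 1 gene (691 several, 1606 none) by the platform annotation. Those above the array's 25th percentile on at least 3 arrays, 16566 for 10371 genes, were fitted with limma 3.58.1 in R 4.3.3 (4 group means, intensity trend, all 12 arrays) for 5 comparisons, with Benjamini-Hochberg adjustment over all probe sets of a comparison and a threshold of 0.05; p-values are two-sided. The procedure was tested on simulated data. Intervals are at 95%. Labels give biological replicates without naming animals, so p-values measure the spread between these samples.

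The members and gene lists were chosen with earlier results of these data known. Named genes were all member probe sets and a written list of kinases, factors and targets, whatever their values. Alternatives were quantile normalization, median centring, other filters, brightest probe sets only, no trend, replicate blocks, fits of the compared groups alone, a minimum log2 change of 1, and leaving out each array. For the pathway lists, quantile normalization, centring, no filter and leaving out arrays were added after seeing the data. Promoters are from RefSeq, GRCm38.p6.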

Additional observations from a re-analysis of the deposited data

Results flagged for a closer look

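For 8 of the 15 member probe sets the change after injury differed between total and polysome-bound RNA by the interaction test (limma, adjusted p under 0.05). Over all probe sets 8375 of 16566 passed the same test, a similar share. Of all probe sets, 13.6% had the larger value on polysomes and 37% the larger value in total RNA. The polysome change exceeded the total RNA change by 0.65 for Sesn2 1425139_at, 0.26 for Trib3 1426065_a_at and 0.16 for Atf4 1439258_at, the last at background signal. It was smaller, with differences of -0.54 and -0.30 for Asns 1451095_at and 1433966_x_at, -0.46 for Ddit3, -0.45 for Chac1 and -0.39 for Slc3a2. The call for Atf4 1439258_at (adjusted p = 0.039) was lost without any 1 of 8 arrays.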

How the results depend on the processing

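Leaving out 1 array at a time reversed no called member value, and the counts of called members stayed at 9 to 12 in total RNA (12 with all arrays), 3 to 6 on polysomes (4), 7 to 9 for the interaction (8), 11 for polysome against total RNA in sham (11) and 12 to 15 in injured cord (15). Over all 16566 probe sets tested, the calls with all arrays were 9901, 6423, 8375, 13444 and 14349 in the same order. For the members, quantile normalization gave 7 on polysomes and 4 for the interaction, and centring 7 on polysomes. The same counts over all probe sets were 6503, 5961 and 6738. Fitting only the compared groups left 1 member called on polysomes, Slc3a2, with adjusted p = 0.1 for Ppp1r15a, 0.061 for Asns 1451095_at and 0.05 (above the threshold before rounding) for Sesn2 1425139_at. In sham cord the polysome against total count was 7 with the filter at the array median, where 11 probe sets were tested, and 6 with brightest probe sets only, where 10 were tested. A minimum log2 change of 1 left 0, 0, 0, 3 and 1 calls in the order above. In limma with no minimum these were 12, 4, 8, 11 and 15.

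Equal replicate numbers were checked as pairs: deviations of equal-numbered total and polysome arrays correlated at 0.19, 0.17 and 0.14 in sham and -0.09, 0.06 and 0.04 in injured cord, so the numbers were not taken as pairing. A random replicate block left the counts at 12, 4, 8, 11 and 15, and a fixed replicate block gave 11, 4, 7, 11 and 15. Every sham array, and not every injured array, correlated best with its own number.

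The sign of the value changed in these cases, and the cause was not tested. As deposited, polysome minus total RNA in sham was near 0 and not called for Sesn2 1425139_at (0.00), Slc3a2 (-0.01) and Atf4 1448135_at (-0.03). After quantile normalization, Asns 1451095_at gave 0.00 for injury in total RNA and Asns 1433966_x_at 0.02 for the interaction. Polysome minus total RNA became 0.05, 0.19 and 0.47 in sham for Atf4 1439258_at, Trib3 1426065_a_at and Sesn2 1425139_at. In injured cord it became 0.12, 0.39, 0.08, 0.34 and 0.18 for Atf4 1439258_at, Trib3 1426065_a_at, Asns 1451095_at, Chac1 and Sesn2 1451599_at. After centring it became 0.47, 0.10, 0.08, 0.48 and 0.49 in sham for Atf4 1448135_at, Ddit3, Trib3 1426065_a_at, Slc3a2 and Sesn2 1425139_at. In injured cord it became 0.26, 0.22, 0.07, 0.45, 0.42, 0.19, 0.40, 0.17 and 0.05 for Atf4 1448135_at and 1439258_at, Ppp1r15a, Trib3 1426065_a_at, Asns 1451095_at, Slc3a2, Chac1, Sesn2 1451599_at and Ddit4. Signal near the absent controls limits Slc7a11 on polysomes, Trib3 1456225_x_at and Atf4 1439258_at. It also limits Trib3 1426065_a_at in total RNA, which was above every absent control but by little.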
